A study of Mus musculus with 7 samples.

Results

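The levels of 10 transcripts, the metallothioneins *Mt1* and *Mt2* and the glucocorticoid-responsive genes *Fkbp5*, *Tsc22d3*, *Sgk1*, *Zbtb16*, *Dusp1*, *Klf9*, *Errfi1* and *Ddit4*, were compared mouse by mouse in liver RNA. They were selected by gene symbol from a table of 23347 genes, and all 10 were present and were among the 15179 genes kept by the filter on low counts. The livers came from male mice on a C57BL/6 background that were young adults when they were put on the CDAHFD, a choline-deficient, amino acid-defined diet rich in fat that brings on steatohepatitis, and every mouse had received it for 15 weeks. Controls were 4 littermate *B4galt1* flox/flox mice (named WT in the sample labels), in which the gene for β-1,4-galactosyltransferase 1, an enzyme that adds galactose to N-linked glycans, is flanked by recombination sites. The other group consisted of 3 mice labelled *B4galt1* hep-/-. This label stands for the same floxed alleles together with *Alb*-Cre, which is under the albumin promoter. The paper describes such mice as knockouts specific to hepatocytes. Whether the gene was intact in the remaining liver cells was not tested. Each mouse gave 1 library of whole-liver RNA. In whole tissue, fewer cells of a type and less RNA per cell cannot be told apart. The hour at which livers were collected is not given in the sources used here.

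Metallothioneins are small proteins, rich in cysteine, that bind zinc and copper and buffer the supply of these metals. In liver their genes are induced by metals through the factor MTF-1, which binds metal response elements in their promoters, and also by glucocorticoids, interleukin-6 and oxidative stress. Glucocorticoids, corticosterone in mice, enter the hepatocyte and bind the glucocorticoid receptor, which moves to the nucleus and acts at glucocorticoid response elements. Corticosterone follows a daily rhythm and rises with stress and fasting, and the genes it controls in liver limit inflammatory signalling, restrain growth factor signalling and adjust metabolism.

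The labels were first checked with the targeted gene. *B4galt1* was present at 48.7, 53.0, 49.2 and 51.6 CPM (counts scaled to a common library size by the TMM method) in the *B4galt1* flox/flox mice, replicates 1 to 4. In the mice labelled *B4galt1* hep-/- it was present at 28.4, 23.9 and 53.7 CPM in replicates 1 to 3. In CPM and in the deposited FPKM replicates 1 and 2 were below every control, whereas the place of replicate 3 turned with the scaling. It was above every control in TMM-scaled CPM and below every control in FPKM, at 11.9 FPKM against 14.0, 13.4, 13.4 and 12.2 FPKM in controls and 6.47 and 6.52 FPKM in replicates 1 and 2. Counts over the whole gene in whole-liver RNA do not show which part of the gene was deleted or in which cells. They therefore cannot settle the genotype of a single mouse. The libraries are called by their labels throughout. Across the groups the log2 fold change was -0.52 ± 0.26 (SE), with an adjusted p of 0.181 in edgeR's quasi-likelihood test and p = 0.143 when the group means were compared by exact permutation, two-sided (n = 4 and 3, smallest possible p 0.0286). In limma on filtered log2(FPKM + 1) it was called lower, at -0.67. Without that replicate 3 the edgeR log2 fold change was -0.96, with an adjusted p of 0.0139. Results for the members are given with and without this mouse where it ended a call or moved a value by over 1.5 times. Library totals were 37838654 to 39668509 counts in controls and 30608271 to 34586588 in the other group. Mitochondrially encoded genes took 5.79% ± 1.70 of the counts in controls (SD, n = 4) and 19.7% ± 4.58 in mice labelled *B4galt1* hep-/- (SD, n = 3), with p = 0.0286 in the exact permutation test, and leaving these 13 genes out left the same number of members called.

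The metallothionein transcripts are shown first, since both rose most among the members. The coding sequences of *Mt1* and *Mt2* (GENCODE transcripts Mt1-201 and Mt2-201) are printed from the start to the stop codon, with the codons for cysteine in capitals.
Mt1: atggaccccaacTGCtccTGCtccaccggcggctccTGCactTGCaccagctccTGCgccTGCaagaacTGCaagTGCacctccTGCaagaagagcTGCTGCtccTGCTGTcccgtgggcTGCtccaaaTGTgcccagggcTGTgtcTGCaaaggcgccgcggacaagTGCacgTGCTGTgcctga
Mt2: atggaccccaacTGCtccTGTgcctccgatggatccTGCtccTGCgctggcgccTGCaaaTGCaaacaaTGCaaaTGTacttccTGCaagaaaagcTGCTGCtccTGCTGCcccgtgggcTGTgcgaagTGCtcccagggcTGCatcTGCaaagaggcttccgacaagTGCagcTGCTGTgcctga
Both encode 61 residues, of which 20 are cysteines, and the 20 cysteine codons lie at the same positions in both genes. The reading frames matched at 148 of 186 bases, an identity of 79.6%. The longest run of identical bases shared by the full transcripts was 20 bases, which bears on how far reads of one gene could be counted for the other. Read length is not given in the sources used here.

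The promoters of *Mt1* and *Mt2* are shown because metal response elements lie in them. The RefSeq promoter windows (build GRCm38.p6, 250 bases before to 50 bases after the annotated start) were chr8:94178839-94179138 for *Mt1* and chr8:94172368-94172667 for *Mt2*, both on the plus strand. Capitals mark each match, on either strand, to the core of the metal response element, TGCACNC or TGCGCNC.
Mt1 promoter: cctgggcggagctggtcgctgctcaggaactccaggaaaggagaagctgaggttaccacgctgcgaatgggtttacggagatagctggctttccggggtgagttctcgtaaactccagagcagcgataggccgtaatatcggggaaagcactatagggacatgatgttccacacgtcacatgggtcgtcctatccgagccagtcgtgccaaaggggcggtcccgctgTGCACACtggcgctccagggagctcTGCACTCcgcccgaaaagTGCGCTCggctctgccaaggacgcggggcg
Mt2 promoter: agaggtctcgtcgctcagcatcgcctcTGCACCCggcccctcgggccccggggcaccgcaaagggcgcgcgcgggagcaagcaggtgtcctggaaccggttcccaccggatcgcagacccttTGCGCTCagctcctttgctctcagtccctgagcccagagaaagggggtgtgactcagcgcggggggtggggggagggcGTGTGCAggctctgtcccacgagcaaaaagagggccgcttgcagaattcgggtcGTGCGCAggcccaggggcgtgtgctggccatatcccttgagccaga
The *Mt1* window held 3 such cores and the *Mt2* window 4. Among 32851 promoter windows of the same length, 25.7% held at least 1, 1.97% held 3 or more and 0.517% held 4 or more.

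The core of the glucocorticoid response element, ACANNNTGT, was searched in the same way and was present in 6.85% of all windows. Windows were given for 9 of the 10 members, all but *Zbtb16*. The core was found in the *Mt1* window, at -92 from the start, and in 2 of the 6 windows of *Sgk1*, which has several annotated starts, at -127 and -186. These sites are shown with the core in capitals and 3 bases on each side.
Mt1 site: gggACATGATGTtcc
Sgk1 site in window 2: gaaACAGTTTGTcta
Sgk1 site in window 5: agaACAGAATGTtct
The site in the *Mt1* window lies at chr8:94178994-94179008, and the *Sgk1* sites lie at chr10:21978542-21978556 and chr10:21993701-21993715, all on the plus strand of GRCm38.p6. No other member's window held this core, which says only that these letters are not in these 300 bases. The core of the antioxidant response element, TGACNNNGC, was found in 12.4% of all windows, and among the members once each in the windows of *Mt2* and *Dusp1*. Of the glucocorticoid-responsive members, *Dusp1*, *Ddit4* and 1 window of *Sgk1* also held a single metal response element core. A match is a description of the sequence and not evidence that a factor binds there.

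Compared with controls, 5 of the 10 members rose in mice labelled *B4galt1* hep-/- and none fell. The 5 were *Mt1*, *Mt2*, *Tsc22d3*, *Zbtb16* and *Dusp1*. The threshold for a call was 0.05 on the adjusted p of edgeR's quasi-likelihood test (Benjamini-Hochberg, over all tested genes) together with a change of more than 0.58 on the log2 scale. By the same rule 15.8% of all tested genes were called, 8.0% as higher and 7.83% as lower. The members were chosen with earlier results of these data known. The shares and medians set beside them therefore describe the members and do not test them as a set. The median log2 fold change was 1.16 over the members and 0.02 over all tested genes. For 4 members, *Mt1*, *Mt2*, *Tsc22d3* and *Dusp1*, every mouse labelled *B4galt1* hep-/- was above every control, against 13.6% of all tested genes (28.6% had groups that did not overlap in either direction). The log2 fold change was above 0 for all 10 members and for 51.3% of tested genes, although *Sgk1* and *Errfi1* were close to 0 and below it when log2 FPKM values were fitted by limma. Replicates were separate mice. The counts behind these values were high, the lowest in any mouse being 289 counts for *Ddit4*.

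**Figure D1:**
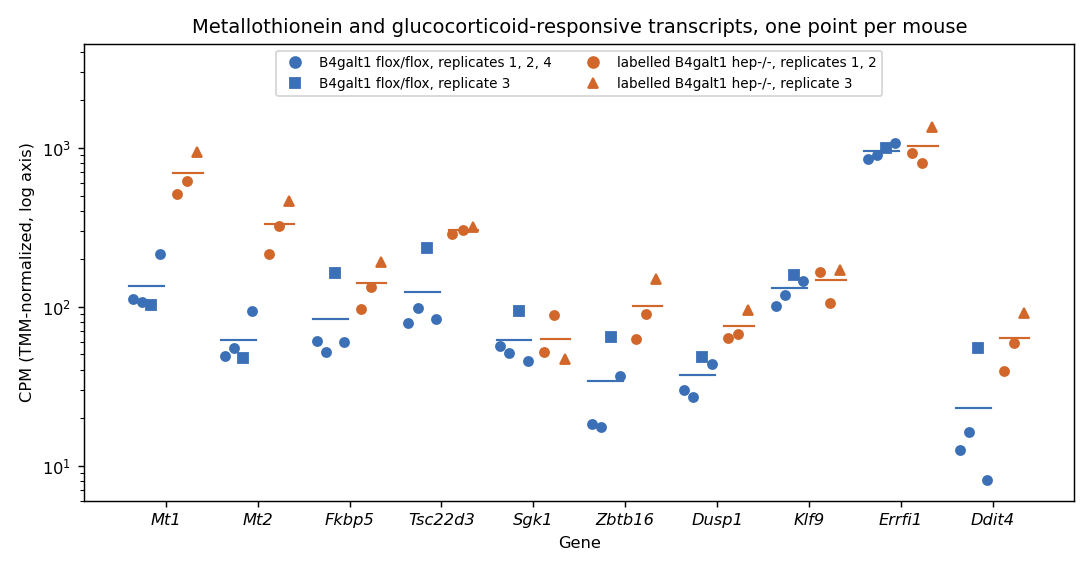
CPM of the 10 members in each mouse on a log axis, with the group mean as a line (4 *B4galt1* flox/flox mice in blue, 3 mice labelled *B4galt1* hep-/- in orange). *Mt1* and *Mt2* separate the groups, and the squares, *B4galt1* flox/flox replicate 3, stand above the other 3 controls for *Fkbp5*, *Tsc22d3*, *Sgk1*, *Zbtb16*, *Dusp1*, *Klf9* and *Ddit4*.

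*Mt1* (gene ID 17748) was present at 112, 107, 103 and 214 CPM in the 4 controls, in the order of their numbers. Mice labelled *B4galt1* hep-/- had 515, 614 and 939 CPM. The groups did not overlap, and the lowest of these mice stood above the highest control, replicate 4. The difference was 5.14-fold (95% interval 3.22 to 8.22), a log2 fold change of 2.36 ± 0.31 (SE) with an adjusted p of 0.00257.

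*Mt2* (gene ID 17750), its neighbour on chromosome 8, was present at 48.6, 55.3, 47.3 and 94.2 CPM in controls. Levels in the mice labelled *B4galt1* hep-/- were 214, 320 and 460 CPM. The order of the mice was close to that of *Mt1*, with control replicate 4 the highest control and replicate 3 the highest of the other group. *Mt2* was 5.40-fold higher (95% interval 3.38 to 8.64), a log2 fold change of 2.43 ± 0.31 (SE) with an adjusted p of 0.00250. By absolute log2 fold change *Mt2* was at rank 151 and *Mt1* at rank 172 of 15179 tested genes.

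Both metallothioneins moved together in every mouse. The ratio of *Mt1* to *Mt2* counts was 2.32, 1.94, 2.17 and 2.27 in controls and 2.41, 1.92 and 2.04 in mice labelled *B4galt1* hep-/-, so that the groups overlapped in this ratio. Together both transcripts took between 0.0162% and 0.0288% of all counts in controls and between 0.0659% and 0.123% in the other group. Both remained called whichever mouse was left out, with log2 fold changes from 2.06 to 2.68 for *Mt1* and from 2.11 to 2.72 for *Mt2*. Without both mice numbered replicate 3 they were 1.96 and 2.01.

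*Tsc22d3* (gene ID 14605), which encodes GILZ, a mediator of the anti-inflammatory action of glucocorticoids, was present at 78.9, 97.8, 233 and 83.8 CPM in controls. In mice labelled *B4galt1* hep-/- it was present at 287, 304 and 318 CPM. Replicate 3 was the one control near the other group, and the 3 mice of that group lay close together, with a coefficient of variation of 5.20%. *Tsc22d3* was 2.46-fold higher (95% interval 1.46 to 4.13), with a log2 fold change of 1.30 ± 0.34 (SE) and an adjusted p of 0.0279. The call was lost when control replicate 2 or 4 or replicate 2 or 3 labelled *B4galt1* hep-/- was left out, at adjusted p values of 0.0839, 0.0673, 0.0510 and 0.0600.

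*Fkbp5* (gene ID 14229) encodes FKBP51, a cochaperone that holds the glucocorticoid receptor in a state of low affinity and is itself induced by it. Controls had 60.5, 51.5, 163 and 60.4 CPM. Mice labelled *B4galt1* hep-/- had 97.2, 132 and 192 CPM. Control replicate 3 was above replicates 1 and 2 of the other group, and the groups overlapped. The log2 fold change was 0.75 ± 0.38 (SE) and the adjusted p 0.199, with a 95% interval for the fold of 0.938 to 3.0. Without control replicate 3 the log2 fold change was 1.29 and the adjusted p 0.0182, which met the threshold. Without replicate 3 labelled *B4galt1* hep-/- it was 0.44, with an adjusted p of 0.496.

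*Zbtb16* (gene ID 235320) encodes PLZF, a zinc finger transcription factor that glucocorticoids induce in many tissues and that also directs the development of innate-like T cells. It was present at 18.4, 17.4, 64.5 and 36.6 CPM in controls. In mice labelled *B4galt1* hep-/- it reached 62.1, 89.7 and 149 CPM. Control replicate 3 was just above replicate 1 of the other group, so the groups overlapped. *Zbtb16* was 2.93-fold higher (95% interval 1.52 to 5.64), a log2 fold change of 1.55 ± 0.43 (SE) with an adjusted p of 0.0337. DESeq2 gave an adjusted p of 0.0613. The call was also lost without any single mouse other than control replicate 3 and replicate 1 labelled *B4galt1* hep-/-, at adjusted p values from 0.0523 to 0.117. Summed markers of T and NK cells ranged from 11 to 30.1 CPM in controls and from 16.8 to 46.6 CPM in the other group, and the mouse with the most *Zbtb16* had 23.4 CPM of these markers.

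*Sgk1* (gene ID 20393) encodes a kinase, induced by glucocorticoids and mineralocorticoids, that acts on ion transport and cell survival. It was present at 56.9, 51.1, 94.4 and 45.5 CPM in controls and at 51.7, 89.2 and 46.9 CPM in mice labelled *B4galt1* hep-/-. In each group 1 mouse stood above the rest, control replicate 3 and replicate 2 of the other group. The log2 fold change was 0.01 ± 0.29 (SE) and the adjusted p 0.979, with a 95% interval for the fold of 0.649 to 1.57, and the sign turned with the mouse left out, from -0.33 without replicate 2 labelled *B4galt1* hep-/- to 0.29 without control replicate 3.

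*Klf9* (gene ID 16601), a Krüppel-like transcription factor, was present at 101, 119, 158 and 146 CPM in controls. In mice labelled *B4galt1* hep-/- it was present at 166, 106 and 169 CPM. The groups overlapped across most of their range. The log2 fold change was 0.17 ± 0.23 (SE) and the adjusted p 0.645, with a 95% interval for the fold of 0.791 to 1.60. With 1 mouse left out the log2 fold change ranged from 0.05, without replicate 3 labelled *B4galt1* hep-/-, to 0.36, without replicate 2 of that group, and *Klf9* was called in none of these fits.

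*Dusp1* (gene ID 19252) encodes a phosphatase that switches off MAP kinases. It was present at 29.9, 27.1, 48.1 and 43.3 CPM in controls. Levels were 63.2, 67.3 and 95 CPM in mice labelled *B4galt1* hep-/-. The groups did not overlap. *Dusp1* was 2.03-fold higher (95% interval 1.41 to 2.92), a log2 fold change of 1.02 ± 0.24 (SE) with an adjusted p of 0.0184. Without control replicate 2 the adjusted p was 0.0606, and without replicate 3 labelled *B4galt1* hep-/- it was 0.0581.

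*Errfi1* (gene ID 74155) encodes MIG6, an inhibitor of the EGF receptor. Controls had 848, 896, 991 and 1078 CPM. Mice labelled *B4galt1* hep-/- had 922, 797 and 1347 CPM. Replicates 1 and 2 of that group were within or below the controls and replicate 3 was above them. The log2 fold change was 0.10 ± 0.23 (SE) and the adjusted p 0.794, with a 95% interval for the fold of 0.752 to 1.53. Without that replicate 3 the log2 fold change was -0.16.

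*Ddit4* (gene ID 74747) encodes REDD1, an inhibitor of the kinase complex mTORC1 that glucocorticoids, hypoxia and amino acid stress induce. It was present at 12.5, 16.3, 55.1 and 8.17 CPM in controls and at 39.3, 59.3 and 91.8 CPM in mice labelled *B4galt1* hep-/-. Control replicate 3 was above replicate 1 of the other group, while the other 3 controls were below all 3 of those mice. The fold was 2.75 (95% interval 1.22 to 6.21), and the log2 fold change of 1.46 ± 0.54 (SE) had an adjusted p of 0.0838 and was not called. Without control replicate 3 the log2 fold change was 2.36, with an adjusted p of 0.00714. Without replicate 3 labelled *B4galt1* hep-/- it was 1.09, with an adjusted p of 0.236.

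**Figure D2:**
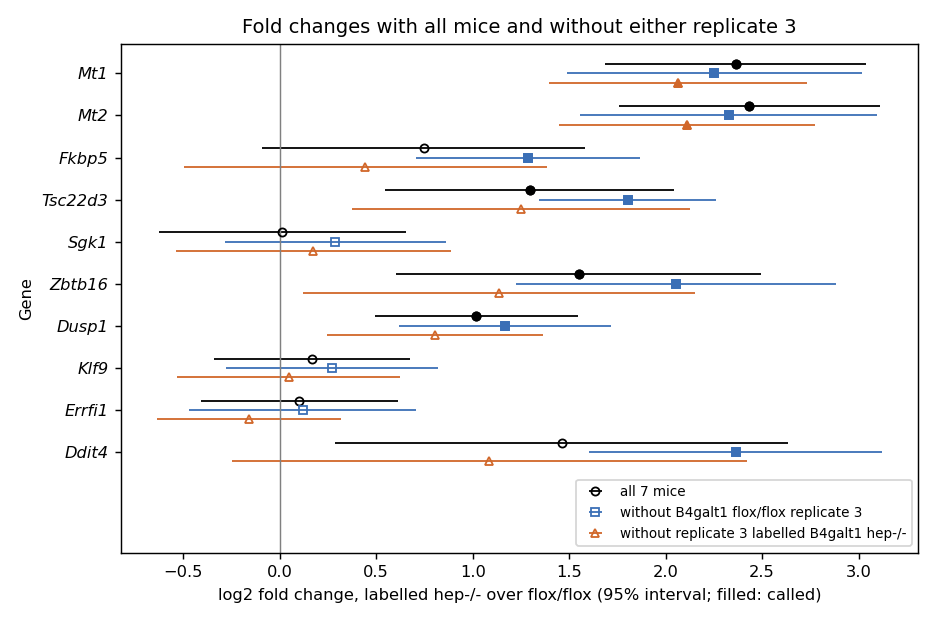
Log2 fold changes of the members with their 95% intervals, with all 7 mice (black), without *B4galt1* flox/flox replicate 3 (blue) and without replicate 3 labelled *B4galt1* hep-/- (orange), filled where called. Without the control, *Fkbp5* and *Ddit4* are called as well, and without the other mouse only *Mt1* and *Mt2* are.

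On the scale per length of transcript, FPKM, *Errfi1* was the most abundant member in controls, with 294 ± 21.2 FPKM (SD, n = 4). *Mt2* and *Mt1* came next with 112 ± 30.9 and 109 ± 34.4 FPKM, which did not differ beyond their spread. *Tsc22d3*, *Klf9*, *Fkbp5*, *Dusp1*, *Sgk1* and *Ddit4* lay between 32.1 and 14.5 FPKM, and *Zbtb16* was the lowest at 4.33 ± 2.90 FPKM. In mice labelled *B4galt1* hep-/- the metallothioneins headed the order, *Mt2* with 566 ± 196 and *Mt1* with 518 ± 143 FPKM (SD, n = 3). *Errfi1* followed with 286 ± 57.9 FPKM and *Tsc22d3* with 71.8 ± 8.90 FPKM, and *Zbtb16* was again the lowest with 11.5 ± 4.55 FPKM.

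*B4galt1* flox/flox replicate 3 had high levels of several glucocorticoid-responsive members. It was the highest control for 7 of the 8 glucocorticoid-responsive members in CPM, all but *Errfi1*, against 29.7% of all tested genes, and for all 8 in FPKM, against 34.3%. In the 8 gene lists described after the members, it was the highest control in CPM for between 8.33% of the genes (immediate early genes) and 55.6% (genes around the glucocorticoid receptor), and in FPKM for 8.33% to 66.7%. Relative to the mean of the other 3 controls its CPM was 4.48-fold for *Ddit4*, 2.83-fold for *Fkbp5*, 2.69-fold for *Tsc22d3*, 2.67-fold for *Zbtb16*, 1.84-fold for *Sgk1*, 1.44-fold for *Dusp1*, 1.30-fold for *Klf9* and 1.05-fold for *Errfi1*. Over all tested genes this ratio had a median of 0.983 and a range from 0.419 to 1.87 between the 5th and 95th percentiles. Of the 8 genes, 4 (*Ddit4*, *Fkbp5*, *Tsc22d3* and *Zbtb16*) were above that range and 4 were within it. For *Mt1* and *Mt2* the ratio was 0.709 and 0.716, so the same mouse was the lowest control for both in CPM, while in FPKM replicate 2 was the lowest for *Mt1*. In that mouse summed macrophage markers were at 3338 CPM, against 1452 to 2003 CPM in the other controls, and endothelial markers at 259 CPM, against 64.8 to 97.6 CPM. The part of these cells in its transcript levels was not tested.

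Replicate 3 labelled *B4galt1* hep-/-, the mouse whose *B4galt1* level was near that of controls, was the highest of its group in TMM-scaled CPM for 9 of the 10 members, all but *Sgk1*, against 33.1% of tested genes. In FPKM it was the highest for 7, since *Tsc22d3* was then highest in replicate 2 and *Klf9* in replicate 1, against 22.7% of tested genes. In the 8 lists described after the members, it was the highest of its group in CPM for between 28.6% of the genes (paralogs and partners) and 81.2% (interleukin-6 and STAT3 targets), and in FPKM for 23.8% to 75%. Its *Mt1* and *Mt2* levels were the highest of all 7 mice on both scales. The number of members called was 7 without control replicate 3, where 9.36% of all tested genes were called, 2 without replicate 3 labelled *B4galt1* hep-/-, where 13.8% were, and 7 without both, where 9.39% were. The number was 2 without control replicate 2, 3 without control replicate 4 and 3 without replicate 2 labelled *B4galt1* hep-/-, fits in which the share of all tested genes called fell from 15.8% to 5.9%, 10.3% and 7.76%. In each of these fits *Mt1* and *Mt2* were among the members called.

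The other cell types that a liver sample holds were followed by summed markers. Hepatocyte markers ranged from 73142 to 110588 CPM in controls and from 90091 to 140553 CPM in mice labelled *B4galt1* hep-/-, and none of the 5 was called. Macrophage markers were lower in every mouse of that group, at 623 to 738 CPM against 1452 to 3338 CPM, and 6 of 8 fell. Endothelial markers were 64.8 to 259 CPM in controls and 85.2 to 106 CPM in the other group, where 1 of 5 fell. Stellate cell markers (864 to 1284 against 773 to 1329 CPM) and cholangiocyte markers (253 to 656 against 259 to 870 CPM) overlapped, and none was called. Markers of B cells (3.09 to 5.48 against 4.24 to 8.60 CPM, 3 of 4 listed genes found) and neutrophils (9.24 to 24.5 against 11.2 to 25.0 CPM) were low, and none of them or of the T and NK cell markers was called. Erythroid markers ranged from 102 to 182 CPM in controls and from 70.1 to 245 CPM in the other group, with 1 of 5 called higher and 1 lower. No cell type had its markers at 0. Their part in the members' levels was not tested.

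Of 18 tested genes for the receptor, its chaperones, its coregulators and the enzymes that supply or remove the hormone, 1 rose and 2 fell, 16.7% against 15.8% of all tested genes, with a median log2 fold change of -0.01. With 1 mouse left out 1 or 2 rose and 1 or 2 fell. The share of all tested genes called was then 16.1%, 5.9%, 9.36% and 10.3% without control replicates 1 to 4. Without replicates 1 to 3 labelled *B4galt1* hep-/- it was 11.7%, 7.76% and 13.8%. Counts with 1 mouse left out in the later lists stand beside the same shares. *Srd5a1*, a steroid 5α-reductase that inactivates glucocorticoids, fell by 1.51 ± 0.22 on the log2 scale (adjusted p = 0.00352). *Nr3c2*, the mineralocorticoid receptor, which also binds corticosterone, fell by 1.35 ± 0.40 (adjusted p = 0.0433), from 6.91 ± 1.73 to 2.71 ± 1.78 CPM, and by 2.05 without replicate 1 labelled *B4galt1* hep-/-. Its call ended with upper-quartile normalization (adjusted p = 0.0559). *Ppid*, a cochaperone of steroid receptors, rose from 25.4 ± 1.49 to 43.9 ± 5.42 CPM, a log2 fold change of 0.79 ± 0.17 (adjusted p = 0.0120). *Hsd11b1*, which regenerates active corticosterone in the hepatocyte, was at 338 ± 71.9 CPM in controls and 546 ± 154 CPM in the other group, a log2 fold change of 0.69 with an adjusted p of 0.0860, and its cofactor-supplying partner *H6pd* was at 305 ± 22.3 and 228 ± 36.9 CPM (adjusted p = 0.159). The chaperone genes *Hsp90ab1* and *Hsp90aa1* were not called (log2 fold changes -0.57 and -0.02). The receptor gene itself, *Nr3c1*, named here for its role although the rule for named genes did not select it, had a log2 fold change of -0.41 with an adjusted p of 0.207.

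Of 22 other liver genes known to respond to glucocorticoids, 6 rose and none fell, 27.3% against 15.8% of all tested genes, with a median log2 fold change of 0.45. The list was likewise chosen with earlier results of these data known, so its share is a description and not a test. The cell cycle inhibitor *Cdkn1a* rose most, from 23.3 ± 7.23 to 107 ± 49.8 CPM (log2 fold change 2.20 ± 0.31, adjusted p = 0.00313). *Gadd45g*, a stress-induced growth arrest gene, rose from 30.8 ± 10.3 to 132 ± 83.8 CPM (2.10 ± 0.37, adjusted p = 0.00627). *Arrdc2*, an arrestin-domain gene, *Cebpb*, a transcription factor of the liver's response to hormones and inflammation, *Per1*, a clock repressor with glucocorticoid response elements, and *Gadd45b* rose by 1.53, 0.94, 0.90 and 0.84 on the log2 scale. Without replicate 3 labelled *B4galt1* hep-/-, with 229 CPM the highest, *Gadd45g* had a log2 fold change of 1.44, and without replicate 2 of that group, with 83.3 CPM the highest, *Arrdc2* had 0.76 and was not called. In CPM control replicate 3 was the highest control for 1 of these 6, *Cdkn1a*, and for 9 of the 22 genes, against 29.7% of all tested genes. In FPKM it was the highest control for 11 of the 22, against 34.3%. The abundant genes for gluconeogenesis and amino acid breakdown were not called. *Pck1* had 3605 ± 707 CPM in controls and 4082 ± 685 CPM in the other group, and *Tat* and *Sds* had log2 fold changes of 0.25 and 0.55. *Tdo2*, the first enzyme of tryptophan breakdown, was at 1123, 1331, 2294 and 1335 CPM in controls and 415, 304 and 1116 CPM in the other group, a log2 fold change of -1.31 with an adjusted p of 0.0566. The number that rose was 2 without control replicate 2, 3 without control replicate 4, 4 without replicate 1 labelled *B4galt1* hep-/-, 3 without replicate 2 of that group and 6 without any of the other mice, with 1 lower without replicate 3 labelled *B4galt1* hep-/-. Limma on the 2 filtered FPKM scales called 3 higher and 1 lower. DESeq2, at least 1 count in any mouse and leaving out both mice numbered 3 called 6 higher and 1 lower. Upper-quartile normalization, at least 10 counts in every mouse and voom weights called 7 higher and 1 lower. RLE normalization and leaving out mitochondrial genes called 6 higher and none lower, and limma over all genes 3 higher and none lower.

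**Figure D3:**
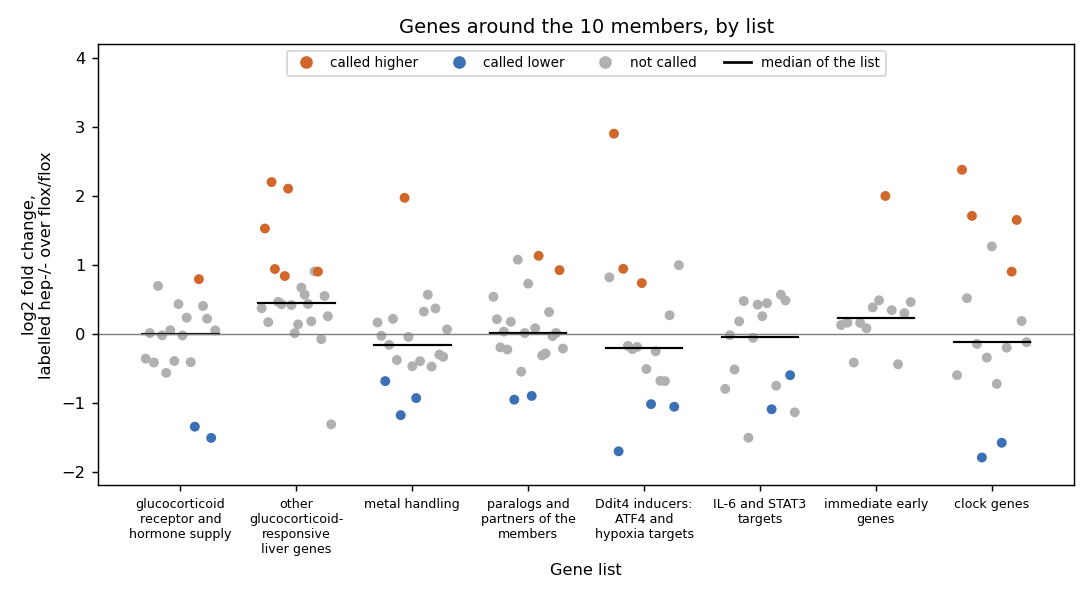
Log2 fold change of each tested gene in 8 lists, orange where called higher, blue where called lower, grey where not called, with the list's median as a line. The list of other glucocorticoid-responsive genes has 6 called higher and none lower, and the metal handling list has 1 higher and 3 lower.

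Of 19 tested genes of metal handling, 1 rose and 3 fell, 21.1% against 15.8% of all tested genes, with a median log2 fold change of -0.16. *Slc30a1*, the zinc exporter of the plasma membrane and a classical target of MTF-1, was at 30.9, 31.5, 32.0 and 30.9 CPM in controls and at 13.7, 10.9 and 16.9 CPM in mice labelled *B4galt1* hep-/-. It fell by 1.18 ± 0.19 on the log2 scale (adjusted p = 0.00501), while *Mt1* and *Mt2* rose in the same mice. The copper importer *Slc31a1* fell by 0.93 ± 0.23 (adjusted p = 0.0227) and the copper-exporting ATPase *Atp7b* by 0.69 ± 0.19 (adjusted p = 0.0325). *Slc30a10*, an exporter of manganese, rose from 1.30 ± 0.520 to 5.10 ± 2.14 CPM (log2 fold change 1.97 ± 0.42, adjusted p = 0.0126). *Cp*, the copper-carrying plasma protein ceruloplasmin, and *Sod1*, the copper and zinc superoxide dismutase, had log2 fold changes of 0.21 and 0.06 and were not called. *Ccs*, which loads copper into *Sod1*, had -0.16. The zinc importer *Slc39a14* was at 130, 157 and 349 CPM in mice labelled *B4galt1* hep-/- against 121 to 168 CPM in controls (adjusted p = 0.225). *Mtf1*, named for its role outside the rule, had a log2 fold change of -0.38 with an adjusted p of 0.267. The number that fell was 1 without control replicate 2 or replicate 1 or 2 labelled *B4galt1* hep-/- and 2 to 4 without any other mouse.

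Other signals that induce the members were followed by lists of their target genes. Of 16 targets of interleukin-6 and STAT3, none rose and 2 fell, *Saa1*, an acute phase protein, by 1.10 ± 0.30 (adjusted p = 0.0311) and *Stat3* by 0.60 ± 0.19 (adjusted p = 0.0492) on the log2 scale. These 2 were 12.5% of the list. In the alternatives that kept all mice, none rose and the number that fell was 4 with DESeq2, 1 and 3 with RLE and upper-quartile normalization, 3 with at least 10 counts in every mouse, 2 with the replicate block and with limma over all genes, 4 with at least 1 count in any mouse or without mitochondrial genes, 5 with voom weights, and 5 and 6 with limma on filtered log2(FPKM + 1) and log2(FPKM + 0.1). The call of *Stat3* ended with RLE normalization (adjusted p = 0.0522), with upper-quartile normalization (log2 fold change -0.57) and with at least 1 count in any mouse (adjusted p = 0.0624). The replicate block ended the calls of both *Stat3* (adjusted p = 0.173) and *Saa1* (adjusted p = 0.0643), so those that fell with the block were other genes of the list. The number that fell was 6 without replicate 3 labelled *B4galt1* hep-/-, 0 without control replicate 2 or 3 or replicate 2 labelled *B4galt1* hep-/-, 1 without control replicate 4 or replicate 1 labelled *B4galt1* hep-/- and 2 without control replicate 1. Haptoglobin, *Hp*, an abundant acute phase protein, was not called (log2 fold change 0.47, adjusted p = 0.185), and the fibrinogen genes *Fga*, *Fgb* and *Fgg* were not called. Of 16 genes of the ATF4 and hypoxia pathways that share stimuli with *Ddit4*, 3 rose and 3 fell (37.5%). With 1 mouse left out 1 to 3 rose and 1 to 3 fell, 1 in each direction without control replicate 2. *Ankrd37*, a hypoxia target, rose from 0.768 ± 0.248 to 5.75 ± 6.13 CPM, with 12.8 CPM in replicate 3 labelled *B4galt1* hep-/- (log2 fold change 2.90, adjusted p = 0.0127, and 1.53 without that mouse). *Atf4* and *Ddit3*, transcription factors of the integrated stress response, rose by 0.94 and 0.73. *Asns* and *Trib3*, 2 targets of ATF4, fell by 1.71 ± 0.21 (adjusted p = 0.00219) and 1.06 ± 0.25 (adjusted p = 0.0196), and *Hif1a*, which encodes the oxygen-regulated subunit of HIF-1, fell by 1.02 ± 0.26 (adjusted p = 0.0258). *Vegfa* was at 89.6 ± 36.6 and 179 ± 76.4 CPM (adjusted p = 0.0733) and was not called. *Bnip3*, *Atf5* and *Pdk1* were not called either and had log2 fold changes of -0.22, -0.18 and -0.26. The median over the list was -0.21. Among 12 immediate early genes, which like *Dusp1* respond quickly to growth factors and stress, 1 rose and none fell (8.33%). It was *Ier3*, which rose from 7.25 ± 2.84 to 28.9 ± 22.8 CPM (log2 fold change 2.0, adjusted p = 0.0149) and had 1.12 without replicate 3 labelled *B4galt1* hep-/- (adjusted p = 0.0523), while *Jun*, *Jund*, *Zfp36* and *Btg2* had log2 fold changes between 0.16 and 0.46 and were not called. The 11 that were not called were not all above 0, since *Egr1* and *Junb*, which the rule did not select and which were added after their values were seen, had log2 fold changes of -0.42 and -0.44.

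Of 21 tested paralogs and partners of the members, 2 rose and 2 fell (19.0%). *Nedd4l*, a ubiquitin ligase that is a substrate of SGK1, rose by 1.13 ± 0.22 on the log2 scale (adjusted p = 0.00884) and *Tsc22d2*, a paralog of *Tsc22d3*, by 0.92 ± 0.25 (adjusted p = 0.0324). *Egfr*, the receptor that the *Errfi1* product inhibits, fell by 0.96 ± 0.28 (adjusted p = 0.0382), and *Klf13*, a paralog of *Klf9*, fell by 0.90 ± 0.25 (adjusted p = 0.0325). *Txnip*, *Fkbp4*, *Dusp3* and *Erbb3* were not called.

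Genes of the circadian clock were read because corticosterone and many of its targets follow the time of day. Of 15 tested, 4 rose and 2 fell (40%). The number that rose was 2 without control replicate 2 or 4, and 1 fell without either of these or without replicate 1 or 3 labelled *B4galt1* hep-/-. *Bmal1* was at 2.78, 1.58, 1.76 and 1.30 CPM in controls and 3.47, 6.79 and 18.7 CPM in mice labelled *B4galt1* hep-/- (log2 fold change 2.38 ± 0.49, adjusted p = 0.0112). *Dbp*, which BMAL1 and CLOCK drive, was at 163, 130, 67.8 and 179 CPM in controls and 43.9, 56.7 and 16.0 CPM in the other group (log2 fold change -1.79 ± 0.42, adjusted p = 0.0181). The 2 mice numbered replicate 3 were at the lowest *Dbp* of their groups. *Per2* rose from 39.5 ± 9.59 to 124 ± 32.1 CPM (1.65 ± 0.24, adjusted p = 0.00362) and *Cry1* from 7.67 ± 3.70 to 25.1 ± 16.1 CPM (1.71 ± 0.41, adjusted p = 0.0198), while *Nr1d1*, the repressor REV-ERBα, fell by 1.58 ± 0.41 (adjusted p = 0.0261) and reached its lowest control level, 28 CPM, in replicate 3. Without replicate 3 labelled *B4galt1* hep-/- the log2 fold change was 1.45 for *Bmal1* (adjusted p = 0.0419) and 1.03 for *Cry1*, which was then not called (adjusted p = 0.0808). *Tef*, *Nr1d2*, *Hlf* and *Per3* were not called. The part of the time of collection in the members' levels was not tested.

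**Figure D4:**
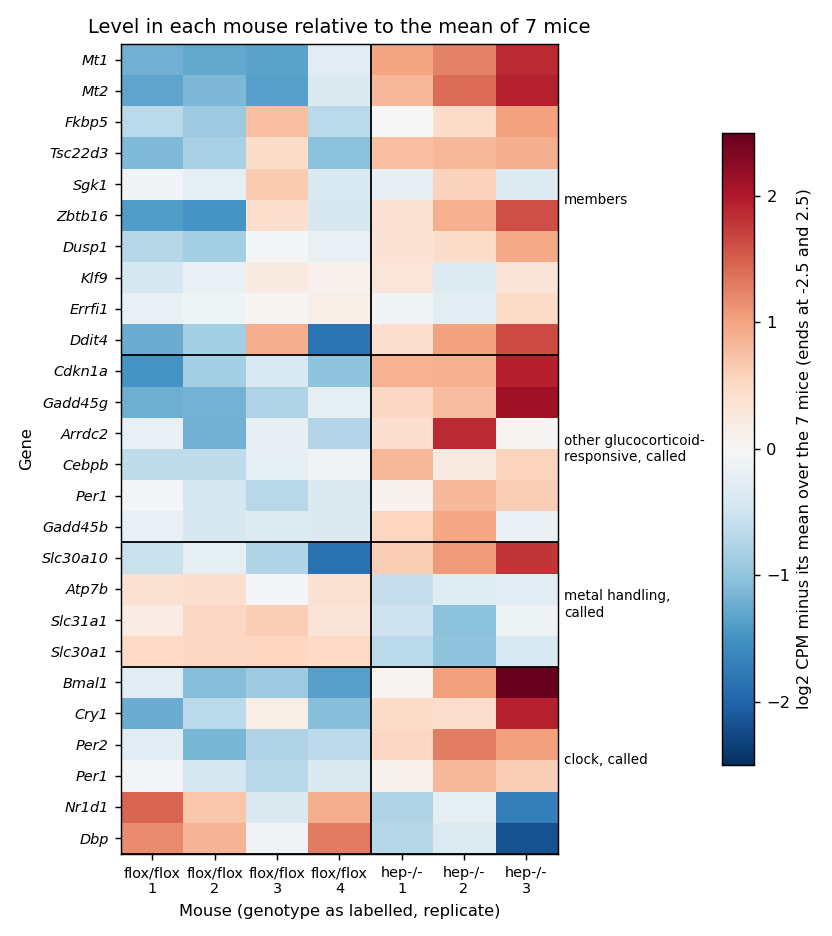
Log2 CPM of each mouse minus the gene's mean over the 7 mice, for the members and for the called genes of 3 lists (red above the mean, blue below, colours ending at -2.5 and 2.5). *Fkbp5*, *Tsc22d3*, *Zbtb16* and *Ddit4* are red in *B4galt1* flox/flox replicate 3, where *Mt1* and *Mt2* are blue, and *Dbp* and *Nr1d1* are bluest in replicate 3 labelled *B4galt1* hep-/-.

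Of the 31 genes called in these lists, 11 remained called whichever single mouse was left out. They were *Cdkn1a*, *Gadd45g*, *Slc30a1*, *Slc30a10*, *Asns*, *Bmal1*, *Dbp*, *Per2*, *Nedd4l*, *Ppid* and *Srd5a1*. The other 20 lost the call without at least 1 mouse, and the adjusted p values then ranged up to 0.159, for *Gadd45b*. *Atp7b*, *Egfr*, *Stat3* and *Tsc22d2* lost it without 6 of the 7 mice, *Atf4*, *Gadd45b* and *Nr3c2* without 5, and *Ddit3*, *Klf13*, *Nr1d1*, *Per1*, *Saa1* and *Slc31a1* without 4. *Arrdc2*, *Cry1*, *Hif1a* and *Trib3* lost it without 3 and *Cebpb* and *Ier3* without 2, while *Ankrd37* lost it without replicate 3 labelled *B4galt1* hep-/- alone (adjusted p = 0.0578). By mouse, 5, 18, 11 and 13 of the 31 calls were lost without control replicates 1 to 4 in turn, and 10, 13 and 10 without replicates 1 to 3 of the other group. Calls over the whole table moved as well. From 15.8% of all tested genes, the share called became 16.1%, 5.9%, 9.36% and 10.3% without control replicates 1 to 4. It became 11.7%, 7.76% and 13.8% without replicates 1 to 3 of the other group. With all mice kept, none of the 31 calls was lost with DESeq2, voom weights, at least 10 counts in every mouse or mitochondrial genes left out, 1 was lost with RLE normalization, 2 with upper-quartile normalization and 1 with at least 1 count in any mouse, those of *Stat3* and *Nr3c2*. Limma on the 2 filtered FPKM scales lost 5 each (*Arrdc2*, *Ddit3*, *Gadd45b*, *Per1* and *Tsc22d2*) and did not test *Bmal1*, *Nr3c2* and *Slc30a10*, limma over all genes lost 18, the replicate block 12, and leaving out both mice numbered 3 lost 14. The share of all tested genes called was 5.79% with limma over all genes, 8.35% with the block and 9.39% without both mice. *Ier3* was among those lost without replicate 3 labelled *B4galt1* hep-/- and without control replicate 2, so that no immediate early gene was then called. Without control replicate 4 or replicate 1 labelled *B4galt1* hep-/- no paralog or partner fell, and without any other mouse 1 fell.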

How the data were processed

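RNA of 7 livers was sequenced, 1 library per mouse. The authors extracted RNA with TRIzol and prepared libraries with the VAHTS Universal V6 kit. The submitters' processing notes name fastp, HISAT2, HTSeq, DESeq2 and GRCm39, without versions, and the annotation and strand setting are not given in the sources used here. The authors deposited raw counts per gene and, for the same genes, FPKM values, which equalled the count over gene length and library total within 1% for each of 13374 genes whose lowest count was at least 10. No 2 libraries agreed within sampling noise.

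In R 4.3.3, edgeR 4.0.16 was used to filter the counts (filterByExpr, minimum count 10, minimum total 15), to normalize them (TMM) and to test them by quasi-likelihood with the genotype label as the sole term and Benjamini-Hochberg adjustment. The thresholds, 0.05 for the adjusted p and 0.58 for the log2 change, are those of the study, which used DESeq2. Standard errors came from the F statistic. The largest library resolves 3 counts as 0.0756 CPM and the smallest as 0.0980 CPM, limits of counting error only. Scripts were tested on simulated data.

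The members and gene lists were chosen with earlier results of these data known. Lists share 3 genes (*Per1*, *Fkbp4*, *Slc39a14*). The text names all members, up to 8 called genes per list and up to 4 of the most abundant others. Of the listed symbols, *Arntl* was matched as *Bmal1*, and *Mt4*, *Tsc22d4* and *Ighm* were not matched and were not analysed here. *Mt3* and *Hsd11b2* were under the filter. Promoters are RefSeq's for GRCm38.p6 and coding sequences GENCODE's for GRCm38, used for sequence and not for counts. The fit was repeated with DESeq2 (1.42.0), with upper-quartile or RLE normalization, with other filters, without mitochondrial genes, with voom weights, with limma (3.58.1) on log2 of FPKM plus 1 or 0.1, with the replicate number as a block and without each mouse in turn. Leaving out both mice numbered 3 was added after the data were seen.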

Additional observations from a re-analysis of the deposited data

Results flagged for a closer look

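Among the 11 groups of 4 controls examined (the members and *B4galt1*), 4 held 1 mouse whose distance from the others exceeded Dixon's 95% limit, a limit that chance passes in about 1 group in 20. *Mt1* at 214 CPM and *Mt2* at 94.2 CPM in *B4galt1* flox/flox replicate 4 were above the other 3 controls, and both genes share this mouse. *Fkbp5* at 163 CPM and *Tsc22d3* at 233 CPM were set apart in the same way in replicate 3. The groups of 3 mice were too small for this check.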

How the results depend on the processing

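*Mt1* and *Mt2* were called in all 19 alternatives. The 5 members called became 2 with limma on log2(FPKM + 1) over all genes, 2 to 7 with 1 mouse left out, and 4 to 7 in the other alternatives. All genes called, 2404, became 1330 with that limma fit, 1267 with the replicate block, 1454 without both mice numbered 3 and 885 to 2396 with 1 mouse out. Limma on FPKM moved the median by -0.119, -0.127 and -0.123 and the share of calls that were higher from 50.5% to 24.5%, 23.6% and 18.2%, so directions of change are relative to such a shift.

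Over all genes that limma fit ended the calls of *Tsc22d3* (1.29), *Zbtb16* (1.30) and *Dusp1* (0.88), and DESeq2 that of *Zbtb16* (1.55). *Fkbp5* was called with voom weights (1.02) and without both mice (0.99), and *Ddit4* with at least 1 count in any mouse (1.44), voom weights (1.78), the replicate block (1.42) and without both mice (1.99). With 1 mouse left out, log2 fold changes ranged from 0.44 to 1.29 for *Fkbp5*, 1.13 to 1.80 for *Tsc22d3*, 1.14 to 2.05 for *Zbtb16*, 0.81 to 1.17 for *Dusp1*, 1.09 to 2.36 for *Ddit4*, -0.33 to 0.29 for *Sgk1*, 0.05 to 0.36 for *Klf9*, -0.16 to 0.25 for *Errfi1* and -0.96 to -0.30 for *B4galt1*. *Sgk1* changed sign with at least 1 count in any mouse (-0.0145), the 3 limma fits (-0.10, -0.11 and -0.10) and the replicate block (-0.12), and *Errfi1* with the limma fits (-0.0543, -0.0545 and -0.0543) and without both mice (-0.14). *B4galt1* was called by limma on filtered log2(FPKM + 1) and log2(FPKM + 0.1) (-0.67 and -0.73) and without both mice (-0.97). The causes were not tested.

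Same-numbered mice deviated from their group means with correlations of -0.458, -0.130 and 0.101. Between mice with different numbers the correlations ranged from -0.345 to 0.586. With groups of 4 and 3 mice these values cannot decide whether the numbers pair the mice. With the replicate block 6 members were called, *Ddit4* in addition, at an adjusted p of 0.00977, and 3 of 22 other glucocorticoid-responsive genes rose and 1 fell.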
